A study of Gallus gallus with 6 samples.

Results

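The genes of the lens capsule matrix and of its cell surface receptors were examined in RNA-seq of chick lens cells with and without DMOG. Members were the loci of the deposited table whose gene name begins as a collagen chain (COL), a laminin chain (LAMA, LAMB or LAMC) or an integrin chain (ITGA or ITGB), together with NID1, NID2, HSPG2, AGRN and SPARC. The rule used names only, and it took 62 of 17340 loci. Of these, 57 were true chains or linkers, namely 26 collagens, 9 laminins, 18 integrins and 4 linkers (SPARC, NID1, AGRN and a locus that joins USP48 with HSPG2). The other 5 loci carry a matching name but encode no chain of these families. Both groups were primary lens cells of White leghorn embryos at embryonic day 10, trypsinized, plated on dishes coated with mouse laminin and grown in Medium 199 with fetal bovine serum. The DMOG group (3 libraries) received 1 mM DMOG for 4 h, and the untreated group (3 libraries) received none. DMOG is a cell-permeable inhibitor of the prolyl hydroxylases that mark HIF1α for degradation, and the comparison asks which transcripts differ after DMOG. The paper allows that DMOG might also affect lens functions apart from HIF1α, but holds this unlikely to account for its HIF1α-bound genes. Whether a difference given here depends on HIF1α was not tested. The methods call the libraries biological triplicates, no source used here says whether treated and untreated cells came from the same preparation, and p-values measure only the spread between these libraries.

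The lens capsule is a thick basement membrane that surrounds the lens and is laid down by the lens cells themselves. In a basement membrane, laminin trimers of an α, a β and a γ chain and a network of collagen IV form separate sheets that nidogen and the heparan sulfate proteoglycan perlecan (HSPG2) link to each other, with agrin and SPARC as further components. Cells hold on to this sheet through integrins, receptors of 1 α and 1 β chain, of which α6β1 and α3β1 bind laminins, α1β1 and α2β1 bind collagens, and the αv integrins bind many ligands through an RGD motif.

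Lens markers were present, with CRYAA, the αA-crystallin, at 863.66, 841.05 and 599.16 FPKM (a fragment density normalized for gene length and library size) in DMOG libraries 1, 2 and 3 and at 791.72, 719.17 and 962.10 FPKM in untreated libraries 1, 2 and 3. Of 8 tested lens epithelium markers 1 was called, SOX2, a transcription factor of early lens development, lower with a log2 fold change of -1.83. FOXE3 and PITX3 were also on that list, but no locus carried their names. By the limits given below, 7.81% of all tested loci were called. The fiber cell markers, 9 loci, summed to 306.69 to 619.1 FPKM with DMOG and 275.4 to 538.97 FPKM without it, most of it from the 1 locus that joins the δ-crystallin genes ASL1 and ASL2 with GUSB. Without that locus the 8 others summed to 49.9 to 151 FPKM and 55.9 to 154 FPKM. Of 9 loci of mesenchyme and corneal stroma markers, TWIST1, PRRX1 and LUM were at 0 in all libraries, and the list summed to at most 8.2 FPKM. The 6 endothelial markers summed to 8.27 to 12.25 FPKM with DMOG and 9.48 to 16.65 FPKM without it. The retina and pigment epithelium markers summed to at most 0.25 FPKM. The leukocyte and platelet markers summed to 6.95 to 9.37 FPKM with DMOG and 8.79 to 11.69 FPKM without it. Most of each leukocyte and platelet sum came from a locus that joins NEK7 with PTPRC, whose values cannot be divided. That locus was at 4.63 to 7.43 FPKM with DMOG and 7.04 to 9.69 FPKM without it. Of 5 erythroid marker loci, the globin genes HBA1, HBBA and HBZ were at 0 in all libraries. ALAS2 (8.12 to 12.91 FPKM) and EPB42 (5.62 to 8.24 FPKM) were present in every library. The erythroid genes HBAD, HBE and GATA1 were also on the list, but no locus carried their names. EGLN3, a known HIF1α target, was at 47.61 to 57.15 FPKM with DMOG and 1.35 to 2.06 FPKM without it. In bulk cultures such as these, fewer cells of a type and less RNA per cell cannot be told apart. The read depth of a library is unknown from FPKM, and the share of loci listed at 0 ran from 29.4% to 35.9% with DMOG and from 25.2% to 30.5% without it.

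Among the collagens, laminins and linkers, no locus passed the test, whereas 2 integrin chains did. ITGB5, the β chain of integrin αvβ5, rose 5.91-fold with DMOG, and ITGA2, the α chain of the collagen receptor α2β1, fell by 1.16 on the log2 scale. Both sizes are of FPKM + 0.5, a scale that understates the change of low genes. A locus was tested by limma on log2(FPKM + 0.5) if its mean over the 6 libraries was at least 1 FPKM, and it was called when the log2 fold change was at least 0.60 in either direction with an unadjusted p under 0.05, the limits of the study. Of the 57 chains and linkers, 30 were tested, 1 was higher and 1 was lower. Over all 9816 tested loci, 7.81% were past these limits, 2.84% higher and 4.97% lower, against 6.67% of the tested chains and linkers, so the number called among them was near the background. No chain or linker had a Benjamini-Hochberg adjusted p under 0.05 in limma, which 0.194% of all tested loci had, and ITGB5 and ITGA2 were the only 2 with an unadjusted p under 0.05, where 9% of all tested loci had one. All DMOG libraries lay above all untreated libraries at 1 tested chain or linker, where 4.47% of all loci did so, and below them at 4, where 11.4% did. Of the 30 fold changes, 21 were smaller than their own standard error. The median log2 fold change of all tested loci was -0.13, and the value relative to that shift is given beside each family median below.

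**Figure D1:**
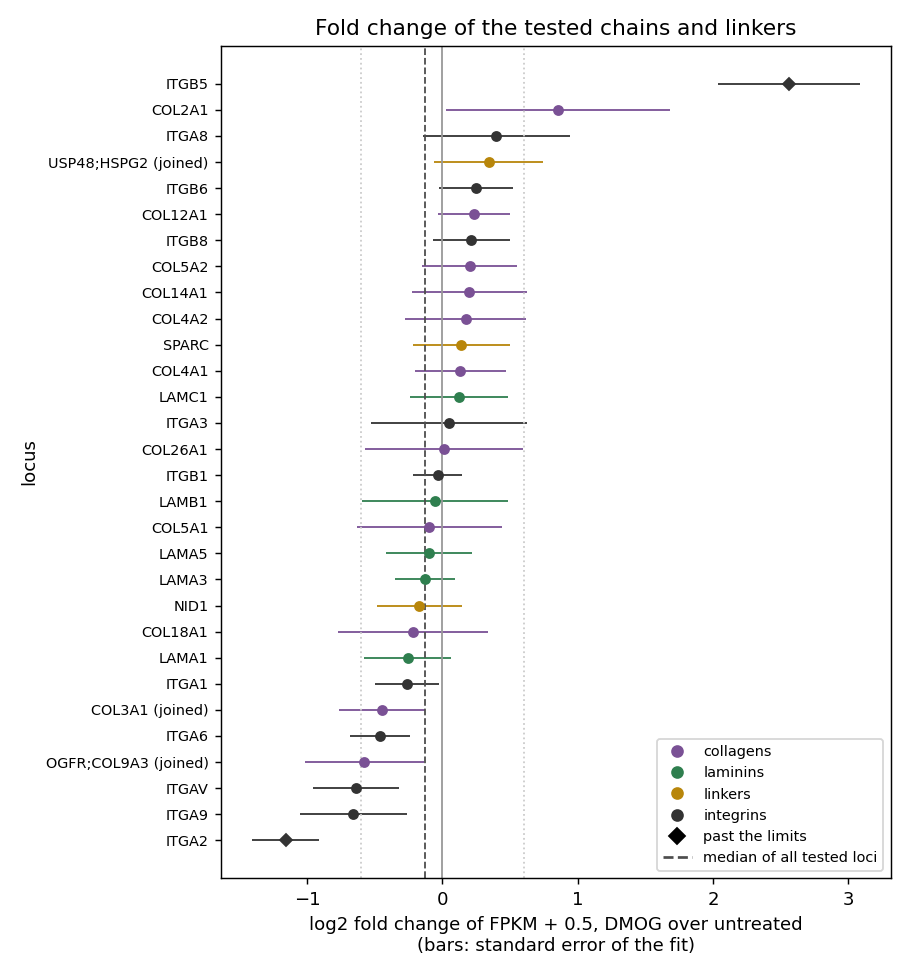
Log2 fold change of FPKM + 0.5 (horizontal axis, DMOG over untreated) for the 30 tested chains and linkers, with bars of 1 standard error of the limma fit, colored by class. The diamonds mark ITGB5 at 2.56 and ITGA2 at -1.16, the 2 loci past the limits, and the dashed line marks the median of all tested loci at -0.13.

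Among the member collagens, laminins and linkers, SPARC and NID1 were the most abundant transcripts per length. THBS1, a matrix partner outside the rule, was higher, at 111.95 to 222.91 FPKM with DMOG and 202.85 to 306.74 FPKM without it. SPARC, a secreted glycoprotein that binds collagen, was at 78.11, 105.32 and 47.56 FPKM in DMOG libraries 1, 2 and 3 and at 67.37, 45.45 and 95.69 FPKM in untreated libraries 1, 2 and 3. NID1, the nidogen that bridges laminin and collagen IV, was at 47.06, 52.57 and 23.29 FPKM with DMOG and at 43.16, 38.15 and 50.16 FPKM without it. The locus that joins USP48 with HSPG2 was at 19.30, 25.62 and 10.83 FPKM with DMOG and at 13.19, 8.87 and 21.87 FPKM without it, and the values of the 2 genes cannot be divided. In each case the groups overlapped, with DMOG library 3 the lowest and untreated library 3 the highest of its group. The log2 fold changes were 0.14 (SE 0.36) for SPARC, -0.17 (SE 0.31) for NID1 and 0.34 (SE 0.40) for the locus with HSPG2, each smaller than its standard error. The order SPARC, NID1, HSPG2 locus held in 6 of 6 libraries. AGRN, the agrin gene, stayed at or under 0.49 FPKM and was listed at 0 in 2 DMOG libraries, and no locus carried the name NID2. The median of the 3 tested linkers was 0.14, or 0.27 relative to all tested loci, and the relative value ran from 0.0055 (DMOG library 2 left out) to 0.52 (DMOG library 3 left out).

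Of the 9 laminin chains, 5 were tested, and these are the α1, α3, α5, β1 and γ1 chains. LAMC1, the γ1 chain found in most basement membrane laminins, was at 21.79, 36.99 and 16.08 FPKM with DMOG and at 21.23, 15.16 and 31.11 FPKM without it. LAMA1, the α1 chain of laminin-111, the form best known from embryonic basement membranes, was at 12.60, 12.21 and 6.29 FPKM with DMOG and at 10.30, 10.31 and 16.03 FPKM without it. LAMB1, the β1 chain, was at 6.56, 8.85 and 1.90 FPKM with DMOG and at 4.68, 3.43 and 8.24 FPKM without it. The spread within a group was wider than the gap between groups at each of these 3 genes, and the groups overlapped. LAMA5, the α5 chain, was at 7.06, 7.48 and 3.80 FPKM with DMOG and at 6.17, 4.98 and 8.22 FPKM without it. The log2 fold changes were 0.12 (SE 0.36) for LAMC1, -0.26 (SE 0.32) for LAMA1, -0.06 (SE 0.54) for LAMB1 and -0.10 (SE 0.32) for LAMA5. LAMA3, the α3 chain, ranged from 4.76 to 6.94 FPKM over both groups, and its log2 fold change was -0.13 (SE 0.22). LAMC1 was above LAMA1, and LAMA1 above LAMA5, in 6 of 6 libraries, whereas LAMA5 was above LAMA3 in 3 of 6 and LAMA3 above LAMB1 in 4 of 6, so the last 3 had no fixed order. The remaining chains, LAMA4, LAMB2, LAMB3 and LAMB4, had means under 1 FPKM. The median of the tested laminins was -0.10, or 0.03 relative to all tested loci, and the relative value ran from -0.13 (DMOG library 2 left out) to 0.25 (DMOG library 3 left out), so its sign was not fixed.

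The 3 listed collagens of basement membranes were all tested, and none differed between the groups by more than the standard error. No locus carried the name of another collagen IV chain (COL4A3, COL4A4, COL4A5 or COL4A6), so these were not examined. COL4A1, the chain that makes up most of the collagen IV trimer, was at 9.65, 10.05 and 4.42 FPKM with DMOG and at 6.09, 6.35 and 8.38 FPKM without it. COL4A2, its partner in the same trimer, was at 5.95, 5.57 and 2.64 FPKM with DMOG and at 2.29, 3.56 and 7.09 FPKM without it. COL18A1, a collagen that carries heparan sulfate and whose end fragment is endostatin, was at 8.47, 7.83 and 2.02 FPKM with DMOG and at 5.12, 4.13 and 10.85 FPKM without it. DMOG library 3 was the lowest of its group and untreated library 3 the highest at all 3 genes, and the groups overlapped. The log2 fold changes were 0.13 (SE 0.34) for COL4A1, 0.17 (SE 0.45) for COL4A2 and -0.22 (SE 0.56) for COL18A1.

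**Figure D2:**
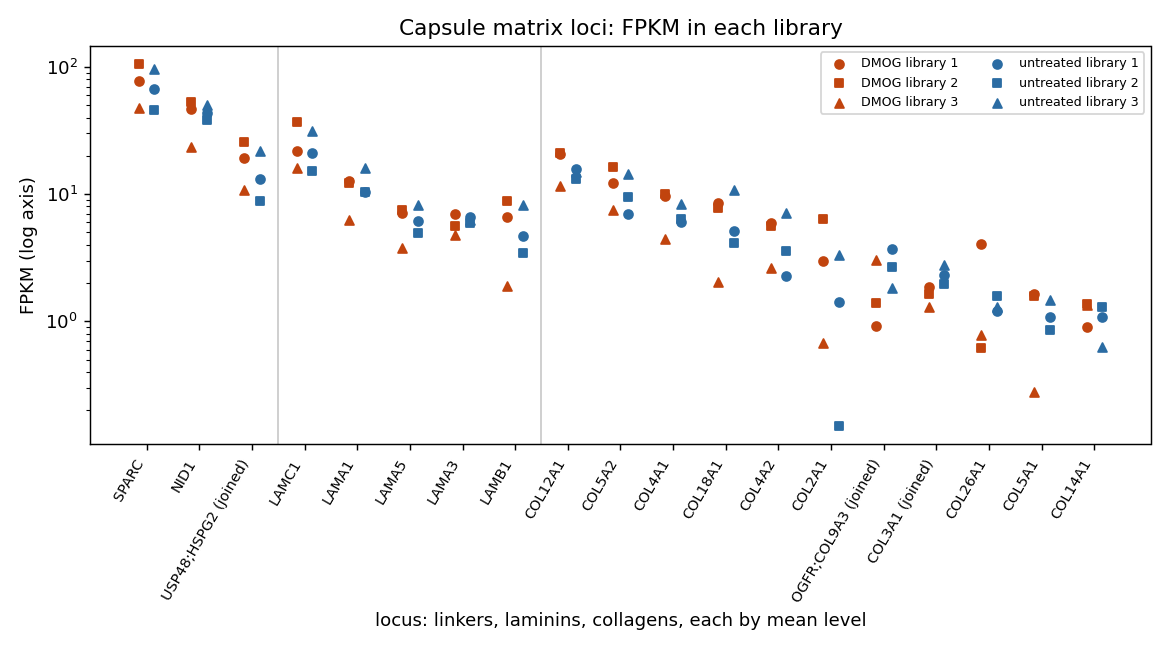
FPKM (log axis) of the 19 tested linkers, laminins and collagens in each library, with DMOG libraries in orange, untreated libraries in blue and the marker shape giving the library number. SPARC is the highest with a mean of 73.3 FPKM over 6 libraries and COL14A1 the lowest with 1.11 FPKM, and at most loci the DMOG and untreated points overlap.

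Outside the basement membrane set, the most abundant collagen was COL12A1, a fibril-associated collagen, at 20.71, 21.16 and 11.53 FPKM with DMOG and at 15.68, 13.24 and 14.79 FPKM without it (log2 fold change 0.23, SE 0.26). COL5A2, a chain of the fibrillar collagen V, followed at 12.14, 16.33 and 7.45 FPKM with DMOG and at 7.02, 9.53 and 14.28 FPKM without it (log2 fold change 0.20, SE 0.35). Each of these 2 genes was above the next in the order, COL5A2 and COL4A1, in 6 of 6 libraries. COL2A1, the fibrillar collagen of vitreous and cartilage, varied most relative to its mean among the tested collagens, at 2.98, 6.40 and 0.68 FPKM with DMOG and at 1.41, 0.15 and 3.35 FPKM without it. Its log2 fold change of 0.86 was the highest of the collagens, but its standard error was 0.83 and its adjusted p in limma 0.790. The locus that joins OGFR with COL9A3, a chain of the fibril-associated collagen IX, was at 0.92, 1.39 and 3.03 FPKM with DMOG and at 3.71, 2.69 and 1.84 FPKM without it (log2 fold change -0.58, SE 0.44). COL26A1 was at 4.02, 0.62 and 0.78 FPKM with DMOG and at 1.20, 1.57 and 1.30 FPKM without it, so that 1 DMOG library was high, and its log2 fold change was 0.01 (SE 0.59). The median of the 11 tested collagens was 0.13, or 0.26 relative to all tested loci, with a range of the relative value from 0.080 to 0.45 over the same omissions.

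Collagens whose DMOG libraries all lay below the untreated ones were 2, named here after their values were seen. Only COL3A1 was among the 11 tested collagens, and 11.4% of all tested loci lay below in the same way. No such share was taken for loci under the minimum of 1 FPKM. COL3A1, the fibrillar collagen III chain, lies in a locus joined with an unnamed Ensembl gene, at 1.86, 1.63 and 1.30 FPKM with DMOG and at 2.31, 1.98 and 2.78 FPKM without it (log2 fold change -0.45, standard error 0.32, adjusted p in limma 0.719). COL17A1, the transmembrane collagen of hemidesmosomes, was at 0.59, 0.57 and 0.64 FPKM with DMOG and at 1.62, 1.16 and 1.20 FPKM without it. The mean of COL17A1, 0.963 FPKM, was just under the minimum and the highest among the 27 chains and linkers below it, so the gene was not tested. Without the minimum its log2 fold change was -0.72 (standard error 0.31, adjusted p in limma 0.620). Of those 27, 15 were collagens, 4 laminins, 7 integrins and 1 the linker AGRN. COL9A1 and COL13A1 were listed at 0 in all libraries, 17 were listed at 0 in some libraries, 8 were above 0 in every library, and COL17A1 was the only one of the 27 whose groups did not overlap. COL1A1 and COL1A2, the collagen I chains of fibrous tissue, were at or under 0.77 and 0.47 FPKM, and COL6A1 and COL6A2 at or under 0.54 and 0.05 FPKM.

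Of the 4 tested integrin β chains, 1 passed the test, where 7.81% of all tested loci did. ITGB5 was at 13.90, 13.11 and 6.11 FPKM in DMOG libraries 1, 2 and 3 and at 0.72, 0.81 and 3.43 FPKM in untreated libraries 1, 2 and 3. The lowest DMOG library lay above the highest untreated library, and these 2 libraries were both numbered 3. The mean was 11.04 FPKM ± 4.29 (SD, n = 3) with DMOG against 1.65 FPKM ± 1.54 (SD, n = 3) without it, with a log2 fold change of 2.56 (standard error 0.53, unadjusted p 0.00147, adjusted p 0.169 in limma over all tested loci). Leaving out any 1 library kept the log2 fold change between 2.26 and 3.11. ITGB1, the β1 chain that pairs with most laminin and collagen binding α chains, was at 49.14, 53.03 and 42.44 FPKM with DMOG and at 45.41, 44.56 and 58.83 FPKM without it (log2 fold change -0.04, SE 0.18). ITGB6, an epithelial partner of αv, was at 12.40, 10.43 and 20.08 FPKM with DMOG and at 11.75, 9.87 and 13.05 FPKM without it (log2 fold change 0.25, SE 0.27). The median of the 4 tested β chains was 0.23, or 0.36 relative to all tested loci (0.18 to 0.48 with 1 library left out, lowest without DMOG library 3).

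**Figure D3:**
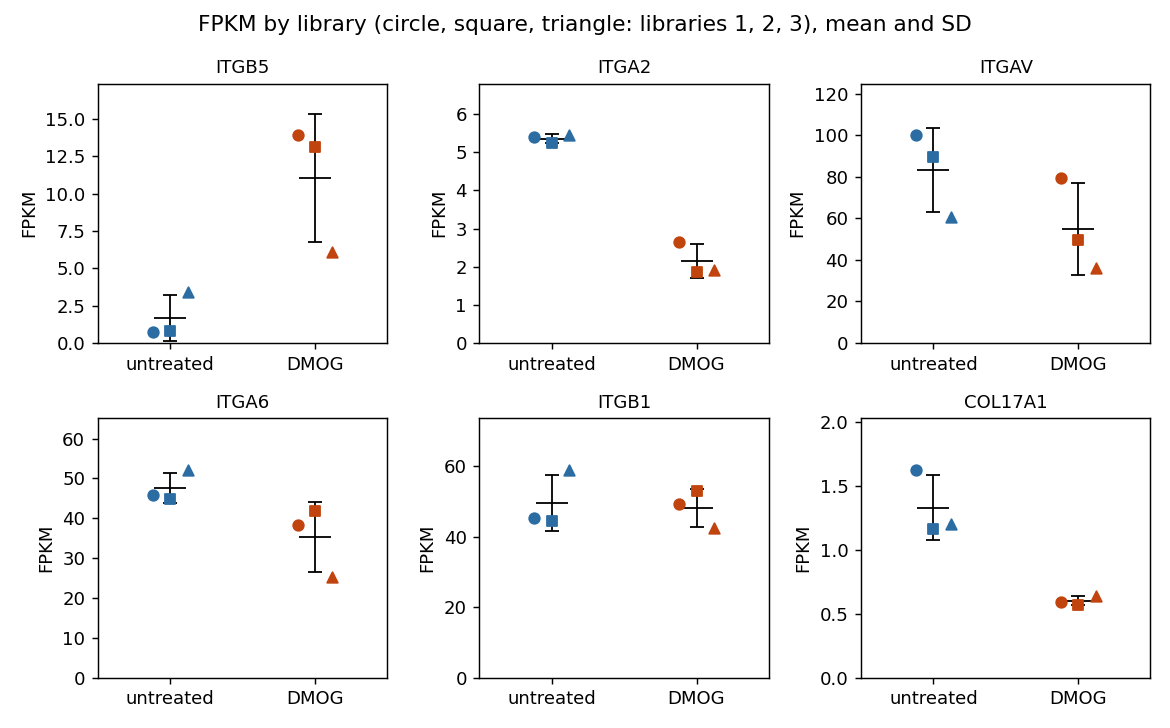
FPKM in each library for ITGB5, ITGA2, ITGAV, ITGA6, ITGB1 and COL17A1, with the mean and SD of each group as bars and the marker shape giving the library number. The 3 DMOG libraries lie above the untreated ones for ITGB5 (6.11 to 13.90 against 0.72 to 3.43 FPKM) and below them for ITGA2 (1.87 to 2.65 against 5.23 to 5.44 FPKM), and the groups overlap for ITGAV and ITGB1.

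The integrin α chains had a median log2 fold change of -0.46, or -0.33 relative to all tested loci (-0.47 to -0.11 with 1 library left out, nearest to 0 without DMOG library 1). Of the 7 tested, 1 was past the limits, where 7.81% of all tested loci were. ITGA2 was at 2.65, 1.87 and 1.91 FPKM with DMOG and at 5.40, 5.23 and 5.44 FPKM without it. The untreated libraries differed by little, with a mean of 5.36 FPKM ± 0.112 (SD, n = 3) against 2.14 FPKM ± 0.439 (SD, n = 3) with DMOG, and each DMOG library was below each of them. The log2 fold change was -1.16 (standard error 0.25, adjusted p 0.20 in limma), between -1.29 and -1.09 when any 1 library was left out. ITGAV, the αv chain, was the most abundant integrin on average, at 79.34, 49.50 and 35.93 FPKM with DMOG and at 99.83, 89.39 and 60.65 FPKM without it. DMOG library 1 lay above untreated library 3, so the groups overlapped, and the log2 fold change was -0.64 (standard error 0.32, unadjusted p 0.0821, adjusted p 0.593 in limma). ITGAV passed the limits when DMOG library 1 was left out (-0.94) and when untreated library 3 was left out (-0.85).

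ITGA6, the α6 chain of the laminin receptors, was at 38.42, 41.92 and 25.31 FPKM with DMOG and at 45.78, 44.96 and 52.06 FPKM without it. All DMOG libraries were below the untreated ones, with a log2 fold change of -0.46 (standard error 0.22, adjusted p 0.593 in limma) that did not reach the limits. ITGA9, named after its values were seen, was also without overlap, at 0.79, 2.55 and 2.11 FPKM with DMOG against 3.14, 2.58 and 3.10 FPKM without it, with library DMOG 2 only just below untreated 2 (log2 fold change -0.66, SE 0.40). With ITGA2, all DMOG libraries lay below all untreated ones at 3 of the 7 tested α chains, where 11.4% of all tested loci did. Whether the family differs from that share was not tested. The other tested α chains, ITGA1, ITGA3 and ITGA8, had log2 fold changes of -0.26, 0.05 and 0.40 and overlapping groups. ITGA3, the α3 chain of a laminin receptor, was at 9.77, 9.18 and 2.28 FPKM with DMOG and at 5.99, 3.26 and 9.77 FPKM without it, with DMOG library 3 low and untreated library 3 high. By mean level the integrins began with ITGAV at 69.1 FPKM, ITGB1 at 48.9 FPKM and ITGA6 at 41.4 FPKM. ITGAV was above ITGB1 in 4 of 6 libraries and ITGB1 above ITGA6 in 4 of 6, so these 3 had no fixed order, while ITGA6 was above ITGB6 in 6 of 6.

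The ratio of partner chains was taken within each library for the 6 pairs in which both chains had a mean of at least 1 FPKM. The planned pairs COL1A2 to COL1A1, COL6A2 to COL6A1 and NID2 to NID1 had a chain below that mean or not listed. All pairs were chosen with earlier results of these data known, so the p-values below are not those of pairs set blind. Ratios are given of FPKM as deposited, and differences between groups are of log2(FPKM + 0.5) unless stated. Each such difference equals that between the log2 fold changes of the 2 chains, so it is not separate support for them. ITGAV was 5.71, 3.78 and 5.88 times the FPKM of ITGB5 in DMOG libraries 1, 2 and 3, and 139, 110 and 17.7 times in untreated libraries 1, 2 and 3. The groups did not overlap, with a difference of -3.20 in log2 ratio, or -3.69 with nothing added to the FPKM (exact permutation p 0.1 for either, two-sided, 0.3 adjusted over the 6 pairs). The ratio of ITGA6 to ITGB1 lay at 0.782, 0.790 and 0.596 with DMOG and 1.01, 1.01 and 0.885 without it, again without overlap (difference -0.42, exact permutation p 0.1, adjusted 0.3). An exact test of 3 libraries against 3 cannot give a p under 0.1. Chains of the same matrix molecule had overlapping ratios, with differences in log2 ratio of 0.04 for COL4A2 to COL4A1, -0.18 for LAMB1 to LAMC1, -0.38 for LAMA1 to LAMC1 and 0.30 for COL5A2 to COL5A1, and exact permutation p from 0.3 to 0.8. With nothing added to the FPKM the last was 0.52 (exact permutation p 0.5). Leaving out 1 library turned the sign for COL4A2 to COL4A1 (0.04 to -0.21 without untreated library 1) and for LAMB1 to LAMC1 (-0.18 to 0.14 without DMOG library 3).

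The β chains that share αv as a partner, apart from ITGB1, were set side by side after their values were seen. ITGB5 made up 4.51%, 5.43% and 15.5% of the summed FPKM of ITGB3, ITGB5, ITGB6 and ITGB8 in untreated libraries 1, 2 and 3, and with DMOG its share was 43.8%, 45.1% and 19.7%. ITGB6 held the largest share in all untreated libraries (59.1% to 73.6%) and in DMOG library 3 (64.7%), while ITGB5 held it in DMOG libraries 1 and 2. The 4 chains summed to 31.7, 29.1 and 31.1 FPKM with DMOG and to 16.0, 14.9 and 22.1 FPKM without it. These sums and shares include ITGB5 itself, so they are not separate support for its rise. ITGB8 was at 4.47, 4.28 and 4.86 FPKM with DMOG and at 2.71, 3.90 and 5.28 FPKM without it, and ITGB3 stayed at or under 1.28 FPKM. FPKM of an mRNA does not give the amount of receptor on the cell.

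**Figure D4:**
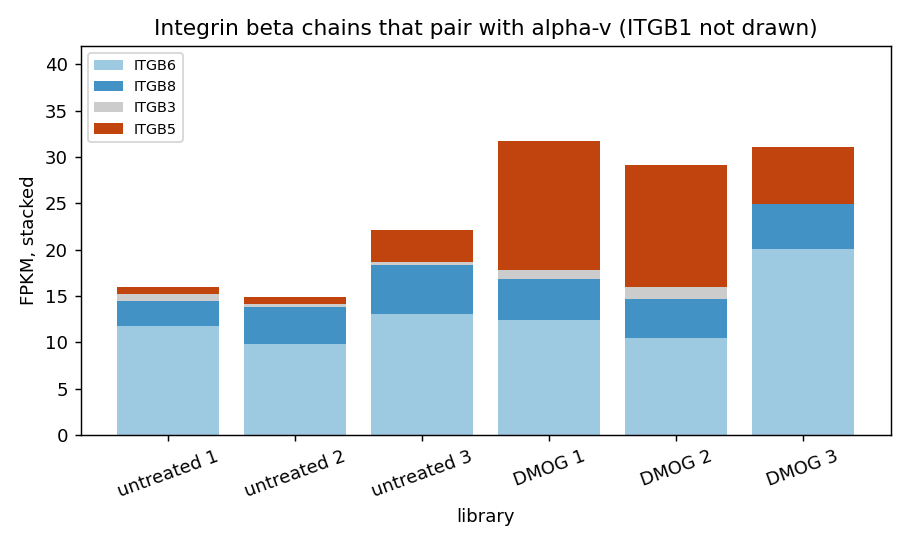
Stacked FPKM of ITGB6, ITGB8, ITGB3 and ITGB5 in each library. The ITGB5 segment is 0.72 to 3.43 FPKM in the untreated libraries and 6.11 to 13.90 FPKM in the DMOG libraries, and the stacks sum to 14.9 to 22.1 FPKM without DMOG and 29.1 to 31.7 FPKM with it.

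At the matrix loci, the libraries numbered 3 stood apart from the others of their groups. DMOG library 3 was the lowest DMOG library at 16 of the 19 tested collagens, laminins and linkers (84.2%, against 46.4% of all tested loci), and untreated library 3 was the highest untreated library at 14 (73.7%, against 45.8%). Both held at 14 of the 19 loci, against 27.0% of all tested loci. After scaling to the same median the shares of the 19 loci were as before, and those of all loci were 36.1%, 34.1% and 17.9%. Summed over the 39 matrix loci, the FPKM came to 273.5, 335.0 and 154.7 with DMOG and 225.1, 181.5 and 310.6 without it. The same order within each group (DMOG 2, 1, 3 and untreated 3, 1, 2) held for some other sums but not for all. The 8 fiber cell marker loci without the joined one summed to 145, 151 and 49.9 FPKM with DMOG and 68.7, 55.9 and 154 FPKM without it. The collagen folding genes summed to 226, 263 and 146 FPKM with DMOG and 121, 119 and 248 FPKM without it, and the lists of proteases and adhesion partners had that order too. The sums of matrix partners and of basement membrane collagens also had DMOG library 3 lowest and untreated library 3 highest, but libraries 1 and 2 in another order. The endothelial markers went the other way, at 10.64, 8.27 and 12.25 FPKM with DMOG and 16.65, 13.45 and 9.48 FPKM without it. The erythroid markers had library 3 lowest in both groups. In the summed lens epithelium markers DMOG library 3 was again the lowest of its group (1208, 1193 and 839 FPKM). Untreated library 3 was the highest (1048, 955 and 1321 FPKM), but most of each sum was CRYAA. CRYAB, MAF, CDH2, PAX6 and the locus with CDH1 also had DMOG library 3 lowest and untreated library 3 highest, whereas PROX1 and SOX2 did not. The part of cell makeup in this pattern was not tested. The sums of the integrin α chains had another order, at 140, 113 and 77.0 FPKM with DMOG and 167, 155 and 144 FPKM without it. ITGAV was the largest part of these sums. Counted by locus, DMOG library 3 was the lowest of its group at 6 of the 11 tested integrins (54.5%). Untreated library 3 was the highest of its group at 9 (81.8%), and both held at 5 (45.5%). After scaling to the same median these integrin counts were 5 (45.5%), 7 (63.6%) and 4 (36.4%).

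**Figure D5:**
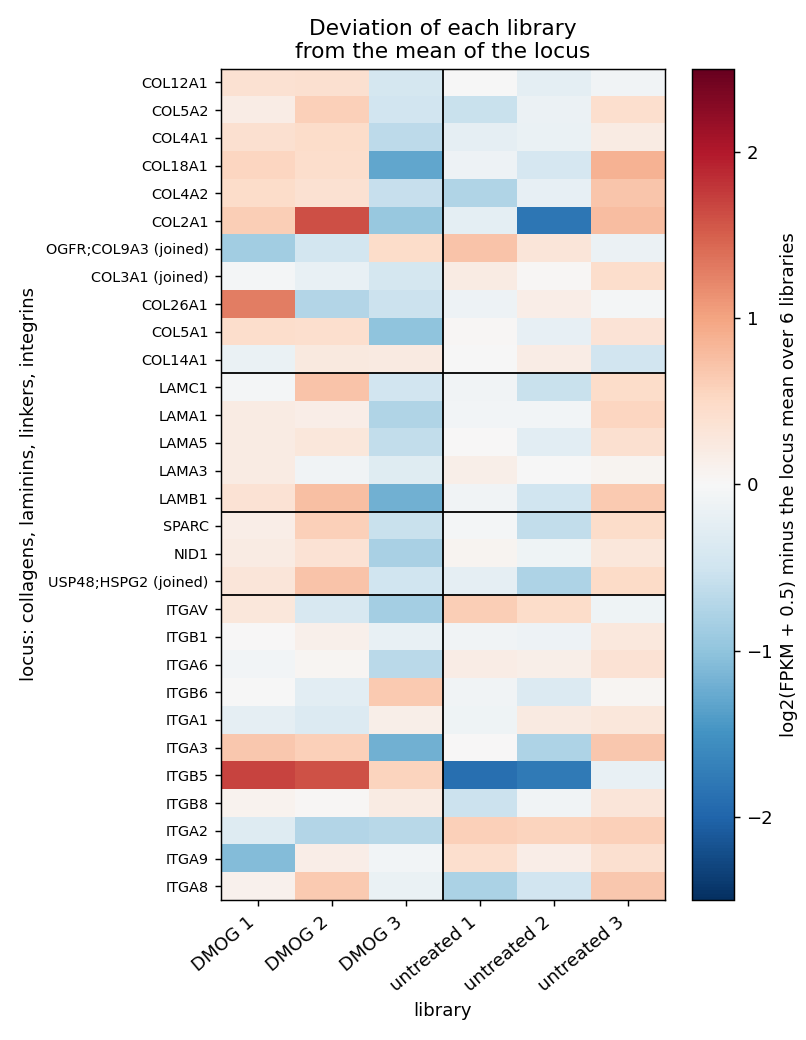
Log2(FPKM + 0.5) minus the mean of the locus over 6 libraries (color) for the tested collagens, laminins, linkers and integrins (rows) in each library (columns). DMOG 3 is the lowest DMOG library at 16 of the 19 matrix loci and untreated 3 the highest untreated library at 14.

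Among the 5 loci that share only a name, 4 were tested and none passed the limits. ITGB1BP3, better known as NMRK2, a nicotinamide riboside kinase, was the most abundant of all 62 loci at 648.92, 604.28 and 730.52 FPKM with DMOG and at 699.60, 687.72 and 610.60 FPKM without it (log2 fold change -0.01, SE 0.17). COL4A3BP, which encodes the ceramide transfer protein, was at 5.12, 5.65 and 4.07 FPKM with DMOG and at 4.81, 6.33 and 7.29 FPKM without it (log2 fold change -0.28, SE 0.25). ITGB1BP1 and ITGB3BP had log2 fold changes of 0.02 and 0.11, and ITGB1BP2, the muscle chaperone melusin, had a mean under 1 FPKM.

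Genes that work on this matrix or on these receptors were counted from lists drawn up by role. SERPINH1, VCL, TLN2 and PTK2 are named after their values were seen. Over all tested loci 7.81% passed the limits, 2.84% higher and 4.97% lower. Of the matrix partners such as FN1 (fibronectin) and NPNT (nephronectin), 11 were tested and 0 passed the limits in either direction. Of the genes of collagen folding and secretion, 1 of 11 tested was higher. It was P4HB, the protein disulfide isomerase that is also the β subunit of collagen prolyl 4-hydroxylase, at 97.56, 99.98 and 64.36 FPKM with DMOG and at 29.17, 29.77 and 55.96 FPKM without it (log2 fold change 1.22, standard error 0.30, adjusted p 0.273 in limma). SERPINH1, the collagen chaperone HSP47, was at 15.43, 18.18 and 10.03 FPKM with DMOG and at 11.54, 16.35 and 69.36 FPKM without it, with untreated library 3 alone high, and did not pass. Of the proteases and inhibitors, 1 of 8 tested was lower, ADAM10, the sheddase of many surface proteins, with a log2 fold change of -0.73 (SE 0.24).

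Of the adhesion partners, 23 were tested, 1 was higher and 1 lower, where 2.84% and 4.97% of all tested loci were. SDC4, the heparan sulfate proteoglycan syndecan-4 that acts beside integrins in focal adhesions, was at 63.32, 63.87 and 53.58 FPKM with DMOG and at 29.39, 24.90 and 26.31 FPKM without it. Its groups lay far apart, with a log2 fold change of 1.15 (SE 0.16) and an adjusted p of 0.0606 in limma, lower than that of any tested member. TNS3, a tensin that binds the tails of β integrins, was lower with a log2 fold change of -0.88 (SE 0.36). VCL, the focal adhesion protein vinculin, was at 13.26, 11.34 and 13.60 FPKM with DMOG and at 18.24, 20.44 and 17.43 FPKM without it, with no overlap. Its log2 fold change of -0.54 (SE 0.18) did not reach 0.60 in size. Also without overlap and not past the limits, TLN2 was lower (log2 fold change -0.38, SE 0.23) and PTK2 higher (0.46, SE 0.22). All DMOG libraries lay below all untreated ones at 11.4% of all tested loci and above them at 4.47%. Over these 4 lists 0 genes had an adjusted p under 0.05 in limma.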

How the data were processed

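RNA-seq libraries of 3 DMOG-treated and 3 untreated primary chick lens cell samples were used. According to the study's methods and the submitters' processing notes, reads were cleaned with cutadapt, aligned to galGal6 by HISAT2 and Bowtie2 and built into transcripts by StringTie, so a locus can join several genes. The deposited values are FPKM, made by the authors, rounded to 2 decimals. They are normalized for depth and length, so a gene is compared with another only per length. Columns of the authors' own comparison (fold, its log2 and p) were not used. The read depth is unknown: ratios of low values between libraries piled up at no step (at most 4.63% of loci in 1 bin), so whole reads were not recovered, and no count test was run. Precision is given by the spread between the 3 libraries of a group.

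For the 9816 loci averaging 1 FPKM or more, log2(FPKM + 0.5) was fitted in limma 3.58.1 (R 4.3.3) with a mean-variance trend and treatment as the only term, with Benjamini-Hochberg adjustment over all tested loci. The script was tested on simulated data. The limits (log2 fold change 0.60, unadjusted p 0.05) follow the study. Groups came from the sample titles, and the columns named as controls were matched to the untreated samples. Loci joining genes made up 892 of those tested. Chain ratios, of FPKM + 0.5, were compared by exact two-sided permutation over libraries. Counts and ratios were computed with pandas 2.3.3 under Python 3.11.15.

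Members, families, gene lists and chain pairs were chosen with earlier results of these data known. Values in every library are given for members past the limits, the 2 most abundant tested members of each family and the tested basement membrane genes, and for others where the text says so. Alternatives were other pseudocounts (0.1 and 1), filters, scalings and moderation, array weights, a replicate block, removal of joined loci, and removal of 1 library at a time. Of the 57 separate member names, 56 matched a symbol in the RefSeq gene table. Protein, promoter and mRNA sequences were not used here, nor was the planned promoter motif count.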

Additional observations from a re-analysis of the deposited data

How the results depend on the processing

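ITGB5 passed the limits under all 16 alternatives, with log2 fold changes from 2.25 to 3.11 and adjusted p in limma from 0.0724 to 0.566. ITGA2 passed them under all 15 in which it was tested, from -1.30 to -1.01, with adjusted p from 0.154 to 0.688. A mean of at least 5 FPKM removed ITGA2, so that 0 members were lower. Leaving out 1 library left 1 to 2 members lower, the second being ITGAV. Over all loci, 279 were higher and 488 lower, so 36.4% were higher. That share was 56.1% with median scaling and 56.2% with quantile normalization, 23.5% without DMOG library 1 and 50.1% without untreated library 3. With a mean of at least 5 FPKM, 183 loci were higher and 231 lower. Lower loci numbered 323 with median scaling, 320 with quantile normalization and from 328 to 768 when 1 library was left out. Loci with an adjusted p under 0.05, 19 as reported, numbered 40 with median scaling, 34 with quantile normalization, 38 with array weights and from 6 to 22 with 1 library left out. The causes of these shifts were not tested.

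Same-numbered libraries did not deviate in the same direction, with negative correlations of -0.11, -0.17 and -0.23 across loci. Correlations between a DMOG and an untreated library of unlike number ran from -0.0068 to 0.16. The numbers were therefore not used as pairs. With replicate number as a block, 5 loci had an adjusted p under 0.05, and 2 members were lower, ITGA2 and ITGAV.

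Of the 32 tested members that were not called, 13 kept the sign of their fold change under every alternative in which they were tested and 19 did not. With median scaling, the log2 fold change was 0.023 for LAMA5, 0.060 for LAMB1, 0.097 for ITGB1 and 0.12 for ITGB1BP3. With quantile normalization it was 0.029 for LAMA5, 0.080 for LAMB1 and 0.31 for COL5A1. With array weights it was 0.15 for COL18A1, 0.061 for LAMA5, 0.25 for LAMB1, 0.029 for ITGB1 and 0.15 for COL5A1. With a pseudocount of 0.1 it was -0.073 for COL26A1. Leaving out 1 library at a time changed the sign at all 19. Among the matrix genes, the log2 fold change ran from -0.061 to 0.49 for COL4A1, -0.16 to 0.56 for COL4A2, -0.54 to 0.38 for COL18A1, -0.34 to 0.38 for COL5A1, -0.049 to 0.49 for COL5A2 and -0.63 to 0.38 for COL26A1. It ran from -0.42 to 0.052 for LAMA1, -0.26 to 0.19 for LAMA5, -0.45 to 0.53 for LAMB1, -0.20 to 0.39 for LAMC1, -0.39 to 0.19 for NID1 and -0.13 to 0.45 for SPARC. For the rest it ran from -0.33 to 0.66 for ITGA3, -0.11 to 0.093 for ITGB1, -0.013 to 0.44 for ITGB6, -0.0035 to 0.42 for ITGB8, -0.47 to 0.32 for ITGB1BP1, -0.086 to 0.051 for ITGB1BP3 and -0.089 to 0.30 for ITGB3BP. The difference in log2 chain ratio ran from -3.96 to -2.76 for ITGAV to ITGB5, -0.49 to -0.29 for ITGA6 to ITGB1, -0.60 to -0.20 for LAMA1 to LAMC1, -0.42 to 0.14 for LAMB1 to LAMC1, -0.21 to 0.30 for COL4A2 to COL4A1 and 0.078 to 0.50 for COL5A2 to COL5A1. Standard errors were 0.18 to 0.83 among the tested chains and linkers, and with 3 libraries a group 1 library can move a fold change by more than its standard error.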
